A study of Mus musculus with 32 samples.

Results

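The genes described here encode substrate adaptors of cullin-RING ubiquitin ligases, in the Asb, Klhl and F-box families (Fbxl, Fbxo and Fbxw). An entry of the expression table belonged to the set when any of its symbols began with one of these family names followed by a digit. Asb2, Fbxo21, Fbxo30, Fbxo31 and Fbxo32 were left out by name. Of 115 matching entries, 5 were left out in this way and 23 did not reach 1 FPKM in at least 4 of the 32 libraries. The remaining 87 entries, of 11975 that reached this minimum and 16634 in the table, are the members. They comprised 15 Asb, 30 Klhl, 12 Fbxl, 22 Fbxo and 8 Fbxw entries. Just inside the minimum were Klhl42 and Klhl36, at or above 1 FPKM in 5 libraries each (means 0.761 and 0.812 FPKM). Just outside it were Fbxl19, Fbxl8 and Fbxo5, which reached 1 FPKM in 2 libraries each (means 0.815, 0.700 and 0.498 FPKM). Among the entries below the minimum was Fbxl12os, an antisense RNA whose symbol matches the rule.

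RNA came from the gastrocnemius, the main calf muscle, of mice 10 weeks old on a mixed genetic background. Mutants carried Sf1-Cre and Sirt1loxP/loxP, meant to remove the deacetylase SIRT1 from SF1 neurons of the hypothalamus and not from muscle. Loss of SIRT1 in other tissues was not examined here. The mice labelled Control carried Sirt1loxP/loxP without the Cre according to the series description, so Cre and deletion cannot be told apart. Each genotype was sampled at Zeitgeber times (ZT, hours from lights on) 0, 6, 12 and 18, with 4 mice in each of the 8 groups. The design asks whether SIRT1 in these neurons affects the daily course of RNA levels in muscle.

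A cullin-RING ligase is built on a cullin scaffold that holds a RING protein at one end and a substrate adaptor at the other. Asb proteins carry ankyrin repeats that bind the substrate and a SOCS box that joins elongins B and C to CUL5. Klhl proteins bind CUL3 directly through a BTB domain and the substrate through kelch repeats. F-box proteins join SKP1 and CUL1, and are named Fbxl, Fbxw or Fbxo for leucine-rich repeats, WD40 repeats or other substrate-binding parts. Attachment of the ubiquitin-like protein NEDD8 to the cullin switches these ligases on, and the COP9 signalosome removes it. In striated muscle, several adaptors act on sarcomere proteins and on insulin signalling.

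Sirt1 RNA had a level of 5.47 ± 0.506 FPKM in control and 5.20 ± 0.731 FPKM in mutant muscle (SD, n = 16 each), and since the deletion was directed at neurons these values are no check of it. Relative sequencing depth, read from steps in low values, ranged from 0.816 to 1.32 between libraries, and absolute depth is unknown. Array weights, limma's estimate of how closely each library follows its group, were lowest in mutant ZT0 library 2 (0.173), mutant ZT18 library 0 (0.346) and mutant ZT12 library 1 (0.372). The 15 markers of muscle fibres summed to between 70301 and 141427 FPKM, and no marker of the 8 cell type lists was at 0 in all libraries.

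The most abundant adaptors were Klhl41, Asb5 and Asb11, and the Asb family had the highest median level (the plot of levels by family). Summed over their members, the Klhl genes held more (782 FPKM, 38.7% of the total over members) than the Asb genes (667 FPKM, 33.0%). FPKM is scaled by transcript length, so levels of different genes can be set side by side. Some entries differ in span from the RefSeq gene, such as Klhl7 (5.95 times as long), Fbxo22 (4.82), Klhl33 (0.210) and Asb12 (0.0896). Their levels may be those of merged or partial genes, and the medians and sums given here include them. The median of the members' means was 28.1 FPKM for Asb, 14.1 for Fbxw, 7.12 for Klhl, 6.84 for Fbxo and 4.55 for Fbxl, against 7.19 for all genes tested. Of the 87 members, 27 (31.0%) had a mean over 20 FPKM, against 24.2% of all genes tested, and 8 of these 27 were among the 15 Asb genes. These levels had to pass the minimum and are given as a description.

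**Figure D1:**
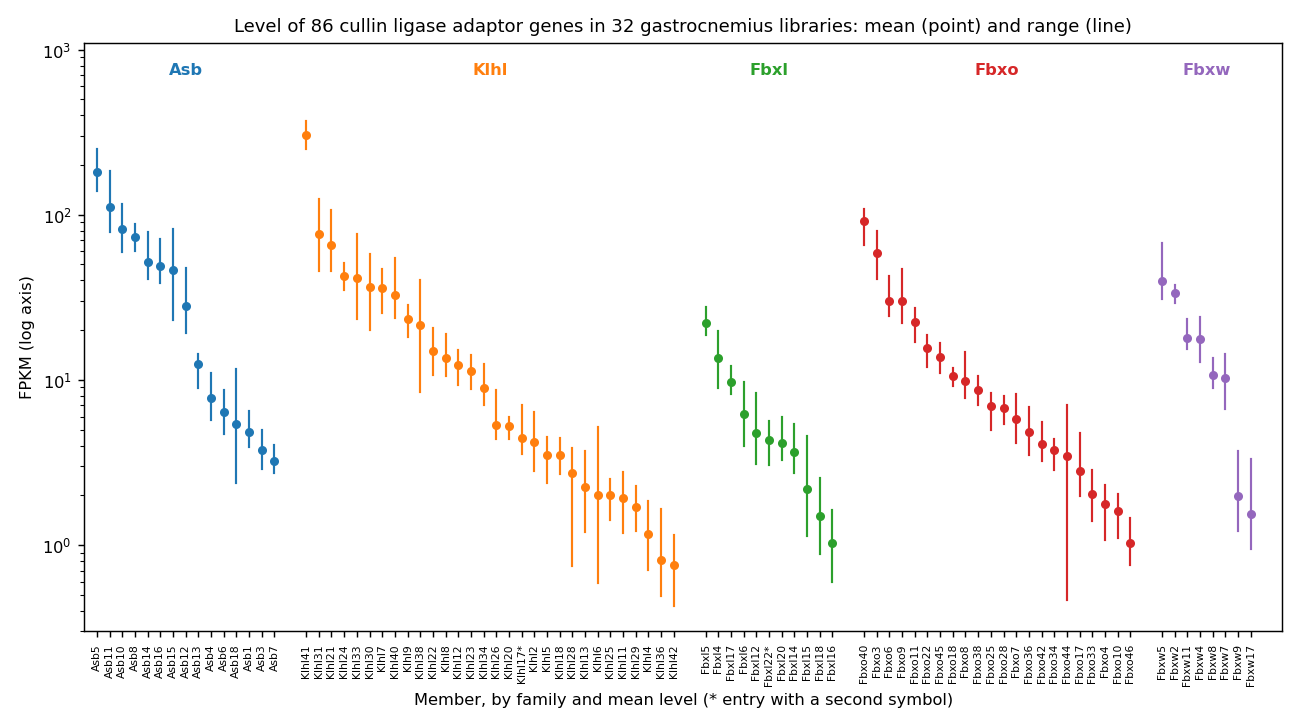
Mean level (points) and range over 32 libraries (lines) of 86 of the members, in FPKM on a log axis, grouped by family and ordered by mean. Klhl41 is highest at 303 FPKM and Klhl42 lowest at 0.761 FPKM, and Fbxo44 has the widest range relative to its level.

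Klhl41, an adaptor that stabilises nebulin and whose loss causes nemaline myopathy, was the highest member at 303 ± 29.2 FPKM (SD over 32 libraries). It ranged from 251 to 370 FPKM. Klhl40, its close relative and partner of nebulin and leiomodin 3, was at 32.6 ± 7.49 FPKM. Klhl31, which is needed for normal muscle structure, was at 76.5 ± 16 FPKM, and Klhl21, a CUL3 adaptor that acts on Aurora B in dividing cells, at 65.9 ± 13.7 FPKM. The spread of Klhl21 reached from 45.4 to 107 FPKM, so its level and that of Klhl31 overlap between libraries. Klhl24, known for its action on keratin 14 in skin, was at 42.3 ± 3.71 FPKM with a narrow range of 35.1 to 51.1 FPKM.

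Among the Asb genes, Asb5 (181 ± 25.9 FPKM), Asb11 (112 ± 26.7 FPKM) and Asb10 (81.9 ± 11.8 FPKM) were highest. Their libraries overlapped in part: Asb5 ranged from 139 to 248.8 FPKM and Asb11 from 78.6 to 184 FPKM. Asb4 was far lower, at 7.81 ± 1.26 FPKM. In the F-box families Fbxo40, a muscle adaptor that targets the insulin receptor substrate IRS1, was highest at 91.8 ± 9.71 FPKM. Fbxo3 followed at 58.5 ± 7.45 FPKM and Fbxo6 at 30.2 ± 4.03 FPKM. Fbxo9, an adaptor linked to the turnover of TEL2 and TTI1 in growth control, was at 30.1 ± 4.81 FPKM and did not stand apart from Fbxo6.

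Among the Fbxl genes, Fbxl21, which acts on cryptochromes and on telethonin, was below the minimum at a mean of 0.104 FPKM. Fbxl5, the iron sensor that controls IRP2, was at 22.2 ± 2.05 FPKM, and Fbxl4, which is needed to maintain mitochondrial DNA, at 13.6 ± 2.40 FPKM. In the Fbxw family, Fbxw5 (39.9 ± 7.71 FPKM) and Fbxw2 (33.4 ± 2.47 FPKM) were highest, followed by Fbxw11 (18.0 ± 2.13 FPKM), the beta-TrCP2 that recognises PER proteins and beta-catenin. Fbxw7, an adaptor for cyclin E and MYC, was at 10.3 ± 1.60 FPKM. Some positions in the table were close together: Fbxo6 and Fbxo44 lie 0.663 kb apart on chromosome 4, at 30.2 and 3.48 FPKM.

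A few members varied more between libraries than the rest, and they were singled out after their values were seen. Over the 87 members the highest library was a median of 1.92 times the lowest, against 2.03 times for all genes tested. For Fbxo44 the ratio was 15.3, with 0.462 to 7.09 FPKM. Klhl6, known from B cells, had a ratio of 8.73 and Klhl28 of 5.20. At the other end Fbxo18 had a ratio of 1.29, with 9.14 to 11.8 FPKM.

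No member differed between genotypes at an adjusted p under 0.05. Over all 4 times, limma called 0 of 87 members, against a background of 3 of 11975 genes (0.0251%). At an unadjusted p under 0.05 there were 3 members (3.45%), against 776 of all genes (6.48%). The members' differences, mutant minus control on the log2(FPKM + 1) scale, had a median of 0.01 with 47 higher and 40 lower. With quantile normalisation, 39 were higher and 48 lower. The 2 most abundant members had differences of -0.08 (SE 0.0482) for Klhl41 and -0.02 (SE 0.0669) for Asb5.

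The 3 members with the smallest p over all times were Asb13, Fbxo9 and Fbxl15. The mean of Asb13 was 13.1 ± 0.859 FPKM over controls and 11.9 ± 1.21 FPKM over mutants (SD over 16 libraries each), with ranges of 11.2 to 14.3 and 8.92 to 14.3 FPKM. The groups overlapped, and the log2 difference was -0.13 (SE 0.0455, limma adjusted p = 0.756). The mean of Fbxo9 was 32 ± 5.09 FPKM over controls and 28.2 ± 3.78 FPKM over mutants. Its control range of 27.2 to 46.7 FPKM overlapped the mutant range of 22.2 to 36.8 FPKM, and the log2 difference was -0.17 (SE 0.0623, limma adjusted p = 0.756).

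At the single times the count of members called was also 0 with limma. The background was 0.0167% of genes for ZT0, 0.0167% for ZT6, 0.0251% for ZT12 and 0.0167% for ZT18. At an unadjusted p under 0.05 there were 9 members (10.3%) for ZT0, 8 (9.20%) for ZT6, 15 (17.2%) for ZT12 and 5 (5.75%) for ZT18. The shares over all genes were 8.46%, 10.4%, 17.4% and 2.88% in the same order. Of the 87 members, 59 were higher in mutants at ZT12 (median 0.07), as were 7619 of all genes (median 0.06). With quantile normalisation 42 of the members were higher and 45 lower at ZT12, so this imbalance was not seen under that scaling. At ZT18, 25 members were higher and 62 lower (median -0.05), against 5306 and 6669 of all genes (median -0.01), and with quantile normalisation 28 were higher and 59 lower. At ZT0, 52 were higher and 35 lower, against 5691 and 6284 of all genes, and at ZT6, 36 were higher and 51 lower, against 5092 and 6883. The quantile-normalised splits were 51 to 36 at ZT0 and 36 to 51 at ZT6. Whether the members' splits differ from those of all genes was not tested.

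Fbxl15, an adaptor for the ubiquitin ligase SMURF1, came closest to a call. At ZT12 its 4 control libraries were at 1.30, 1.14, 1.38 and 1.51 FPKM and its 4 mutant libraries at 2.93, 3.85, 2.25 and 2.003 FPKM. The groups did not overlap, and the log2 difference was 0.67 (SE 0.143, limma adjusted p = 0.0549). The control level at ZT12 was itself low, since control libraries at the other times lay between 1.73 and 2.60 FPKM. The genotype difference passed the threshold with array weights, and without mutant ZT0 library 2, mutant ZT0 library 3 or mutant ZT12 library 3. It stayed at 0.67 without either ZT0 library, as it holds ZT12 libraries only. In these 2 fits only the estimate of the spread and the adjustment changed. The adjusted p of the difference ranged from 0.00663 to 0.319 over 38 alternatives. The table's entry for Fbxl15 (chromosome 19, 46328183 to 46338660 in mm10) is 4.63 times as long as the RefSeq gene and covers Cuedc2, so the value may hold RNA of both genes.

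Fbxo8 and Fbxl4 followed at ZT12. The control libraries of Fbxo8 were at 8.17, 7.95, 8.85 and 7.77 FPKM, and the mutant libraries at 13.7, 11.9, 11.3 and 9.62 FPKM. Again no library overlapped, and the log2 difference was 0.45 (SE 0.115, limma adjusted p = 0.101). Those of Fbxl4 were at 14.7, 12, 13 and 8.92 FPKM for controls, and at 17.4, 16.5, 19.3 and 14.1 FPKM for mutants. Here the lowest mutant library lay below the highest control library, and the difference was 0.45 (SE 0.133, adjusted p = 0.135). Without mutant ZT0 library 2 the adjusted p was 0.0226 for Fbxo8 and 0.0438 for Fbxl4, and without mutant ZT12 library 3 it was 0.0202 and 0.0399. Without mutant ZT0 library 3, Fbxo8 also passed (adjusted p = 0.0326). The ZT12 differences stayed at 0.45 when these ZT0 libraries were left out, and only the estimate of the spread and the adjustment changed. Over all alternatives the adjusted p ranged from 0.0202 to 0.389 for Fbxo8 and from 0.0399 to 0.433 for Fbxl4.

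**Figure D2:**
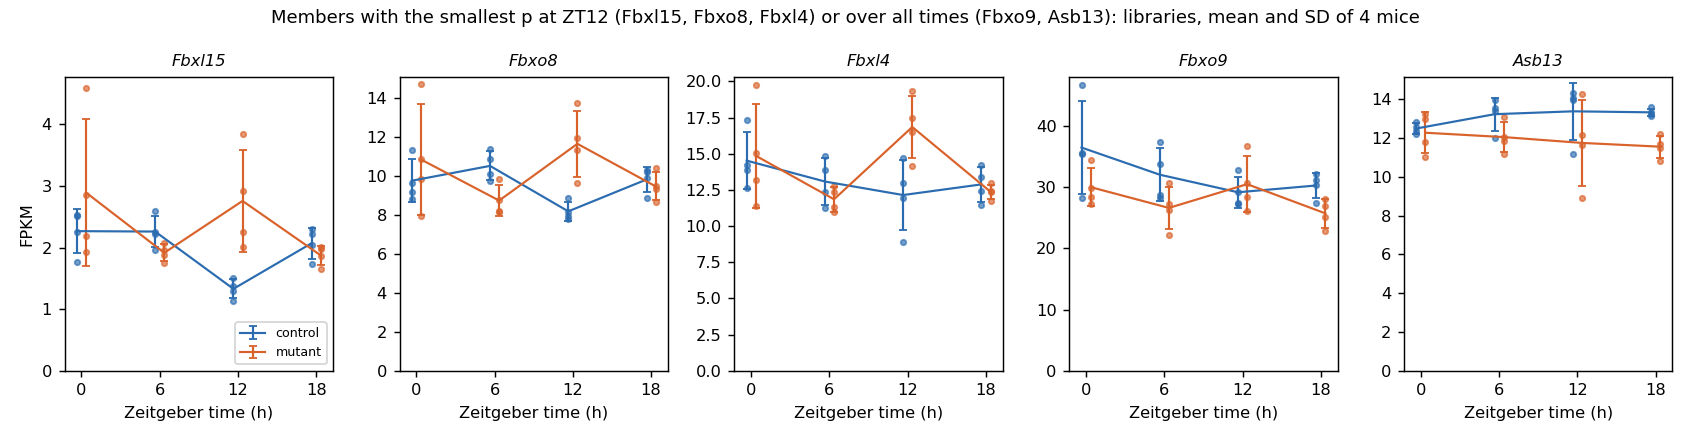
FPKM by Zeitgeber time (hours) of the members with the smallest p at ZT12 (Fbxl15, Fbxo8 and Fbxl4) and of Fbxo9 and Asb13, with points for libraries and lines for the mean and SD of 4 mice. At ZT12 the mutant libraries of Fbxl15 and Fbxo8 lie above all control libraries, and those of Fbxl4 overlap them.

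At ZT0, Klhl38 had the smallest p. Control libraries were at 38.4, 40.1, 24.8 and 37.1 FPKM and mutant libraries at 21.9, 16, 30.9 and 15.6 FPKM. One mutant library, library 2, lay above the lowest control library, and the log2 difference was -0.74 (SE 0.247, limma adjusted p = 0.472). Asb4 and Asb10 followed, at 0.26 (SE 0.105, adjusted p = 0.546) and 0.30 (SE 0.129, adjusted p = 0.560). At ZT6 the smallest p were those of Fbxw11 (-0.24, SE 0.0970), Fbxw4 (-0.27, SE 0.112) and Fbxl16 (-0.24, SE 0.102), each at an adjusted p of 0.471. Every control library of Fbxw11 at ZT6 (19 to 22.1 FPKM) lay above every mutant library (15.8 to 18.3 FPKM). At ZT18 they were those of Klhl23 (-0.21, SE 0.0830), Klhl9 (0.24, SE 0.101) and Asb4 (-0.24, SE 0.105), each at an adjusted p of 0.9995.

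The genotype difference depended on time for 0 members in limma's F test, with a background of 0%. At an unadjusted p under 0.05 there were 12 members (13.8%), against 14.1% of all genes. The smallest p were those of Fbxl15 (adjusted p = 0.209), Fbxo8 (adjusted p = 0.209) and Asb14 (adjusted p = 0.242). Asb14 had mutant means of 44.9 ± 4.09 FPKM at ZT6 and 63.7 ± 11.9 FPKM at ZT12, and control means of 54.0 ± 1.56 and 49.6 ± 5.23 FPKM (SD, n = 4 each).

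Levels of other cell types' genes also differed in direction between genotypes, although no gene of these lists was called. All 13 lymphocyte markers had higher means in mutants, and their sum ranged from 1.82 to 105 FPKM in controls and from 2.27 to 92.4 FPKM in mutants. All 10 adipocyte markers were higher (sum 633 to 2342 FPKM in controls and 534 to 3880 FPKM in mutants). All 9 macrophage markers tested were higher, with sums of 98.0 to 384 FPKM in controls and 107 to 342 FPKM in mutants. All 9 slow fibre markers were lower, with sums of 901 to 2514 and 630 to 2187 FPKM. All 15 markers of muscle fibres in general were lower too, with sums of 91054 to 141427 and 70301 to 133545 FPKM. The median log2 difference was 0.57 for lymphocyte, 0.43 for adipocyte, 0.12 for macrophage, -0.31 for slow fibre and -0.09 for general muscle fibre markers. Median sums of endothelial markers were 196 FPKM in controls and 197 FPKM in mutants. They were 1064 and 1144 FPKM for fibroblast and matrix markers, and 157 and 121 FPKM for nerve and Schwann markers. Markers of a list come from the same libraries, so a shared direction is not a count of separate results. In a bulk sample, fewer cells of a type and less RNA per cell cannot be told apart. The part of these markers in the genotype differences of the members was not tested.

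Klhl6, known from B cells, was set beside the lymphocyte markers after its values were seen, and no other member was set against them. In the 17 libraries (11 control, 6 mutant) with a marker sum of 1.82 to 5.30 FPKM, Klhl6 was between 0.593 and 1.57 FPKM. In the other 15 (5 control, 10 mutant) the marker sum was 28.5 to 105 FPKM and Klhl6 between 1.81 and 5.18 FPKM. This is a description of the libraries, split at the widest gap in their marker sums, and no test of it is reported here. Between genotypes Klhl6 did not pass (log2 difference 0.29, SE 0.177, limma adjusted p = 0.762).

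**Figure D3:**
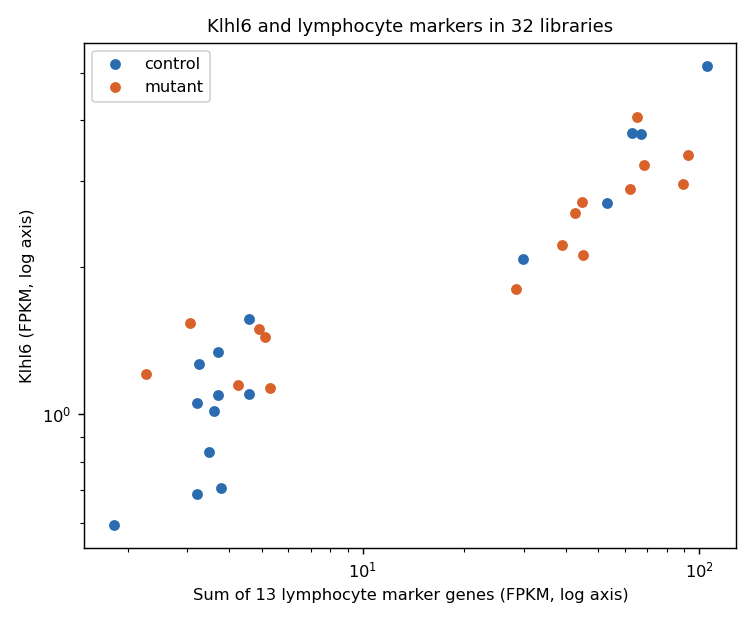
Klhl6 level against the sum of 13 lymphocyte marker genes in 32 libraries, both in FPKM on log axes, coloured by genotype. The libraries form 2 clouds with a gap between sums of 5.30 and 28.5 FPKM, and Klhl6 is higher in every library of the upper cloud.

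Over both genotypes, 14 of the 87 members (16.1%) had a 24 h rhythm, against a background of 11.4% of all genes tested. They were 7 Klhl genes (Klhl7, Klhl8, Klhl13, Klhl30, Klhl31, Klhl33 and Klhl38), 3 Fbxl genes (Fbxl14 and Fbxl20 are described here), 2 Asb genes (Asb8 and Asb15), 2 Fbxo genes (Fbxo3 and Fbxo40) and 0 Fbxw genes. A further 17 members had an unadjusted p under 0.05 but did not pass, which makes 31 (35.6%) against 24% of all genes. Amplitude, from mean to peak of a fitted 24 h cosine on the log2(FPKM + 1) scale, ran from 0.12 for Fbxl20 to 0.56 for Klhl38 among those described. Its median over the 14 was 0.21, as it was over the 1371 genes called. Peaks fell between ZT0 and ZT12 in 6 of the 14, against 726 of the 1371 (53%). With 4 times of day, peak times are read from a curve through 4 means and are approximate.

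**Figure D4:**
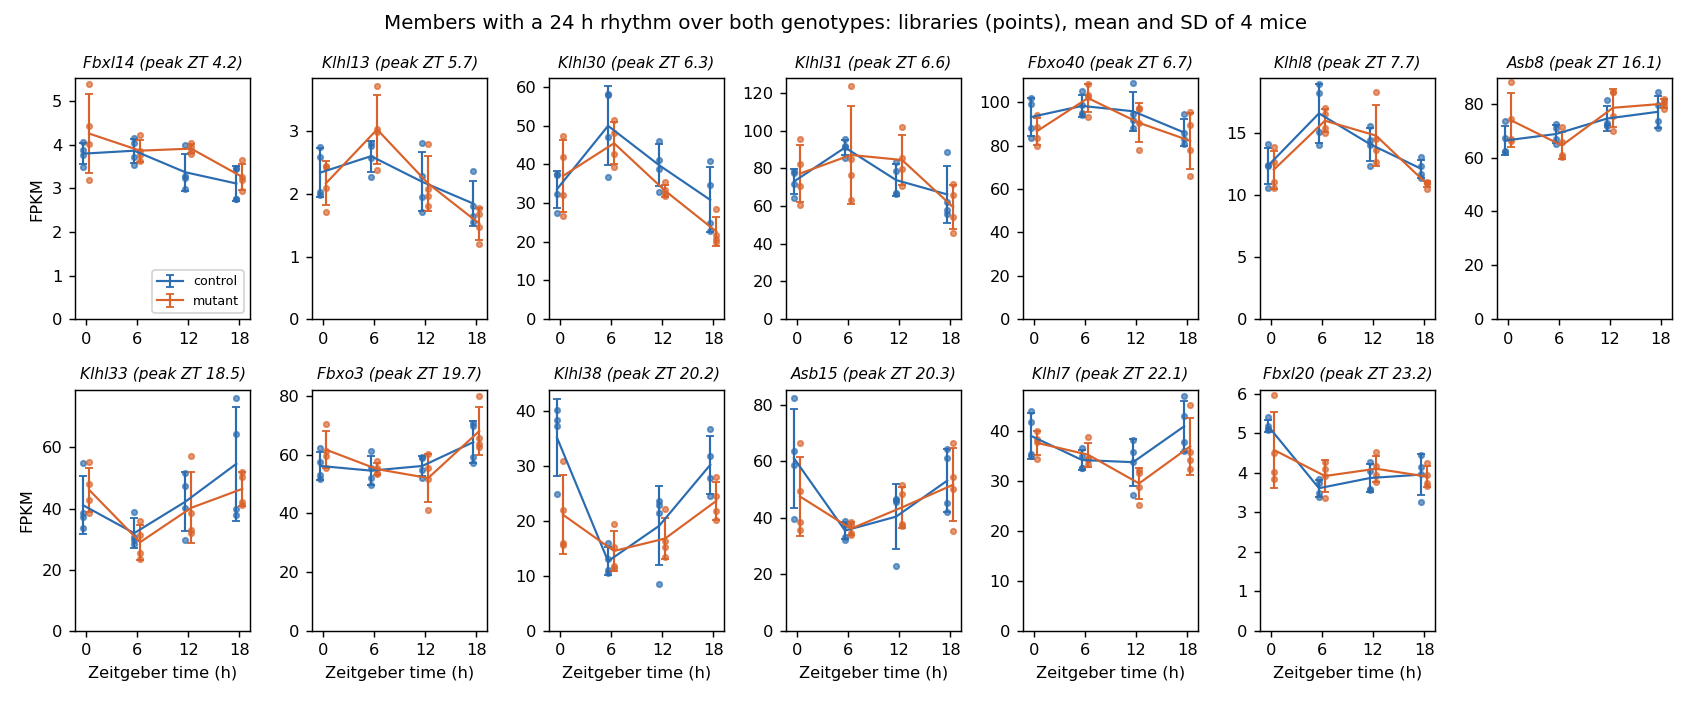
FPKM by Zeitgeber time (hours) of 13 members with a 24 h rhythm over both genotypes, ordered by fitted peak, with points for libraries and lines for the mean and SD of 4 mice per genotype. Klhl30 is high at ZT6 and low at ZT18 in both genotypes, and Klhl38 is low at ZT6.

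Klhl30 (chromosome 1, 91351072 to 91362404 in mm10), a kelch gene of striated muscle, had the largest amplitude among the members with a peak between ZT0 and ZT12. Its 8 libraries per time had a lowest, median and highest value of 26.7, 34.8 and 47.4 FPKM at ZT0, 36.7, 47.6 and 58.1 FPKM at ZT6, 31.8, 34.3 and 46.0 FPKM at ZT12, and 19.98, 23.9 and 40.7 FPKM at ZT18. The ranges at ZT6 and ZT18 overlapped through the control libraries, whereas in mutants every ZT6 library (39.3 FPKM or more) lay above every ZT18 library (28.4 FPKM or less). The amplitude was 0.42 (SE 0.0620) with a peak at ZT 6.27 (limma adjusted p = 8.92e-05).

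Klhl8 (chromosome 5, 103862049 to 103911229), a kelch adaptor of CUL3, had the smallest p of all members. Its medians were 12.4, 16, 14.3 and 11.2 FPKM at ZT0, 6, 12 and 18, and the ZT6 libraries (14 to 19 FPKM) lay above all ZT18 libraries (10.5 to 13 FPKM). Amplitude was 0.26 (SE 0.0366) and the peak at ZT 7.73 (adjusted p = 5.05e-05). Klhl13, which acts with Klhl9 on Aurora B in mitosis, had medians of 2.27, 2.79, 2.02 and 1.66 FPKM at ZT0, 6, 12 and 18. Its ranges at ZT6 (2.27 to 3.72 FPKM) and ZT18 (1.19 to 2.37 FPKM) overlapped at their ends, and the amplitude was 0.25 (SE 0.0432, adjusted p = 0.000507). Klhl9 itself did not pass (amplitude 0.10, adjusted p = 0.170).

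Klhl31 had medians of 74.6, 88.4, 79.1 and 60.2 FPKM at ZT0, 6, 12 and 18. Its libraries overlapped at all times, with 63.1 to 124 FPKM at ZT6 and 45.8 to 88.6 FPKM at ZT18, and the amplitude was 0.25 (SE 0.0606, limma adjusted p = 0.0161). Fbxo40 had a shallow curve, with medians of 88.3, 100.6, 93.1 and 84.2 FPKM. Its amplitude was 0.13 (SE 0.0347, adjusted p = 0.0346) and its peak at ZT 6.74. Fbxl14, an adaptor for the transcription factor Snail, was lowest at ZT18 (median 3.23 FPKM) and between 3.81 and 3.94 FPKM at the other times. Its entry is 26.5 times as long as the RefSeq gene and covers Wnt5b, so its rhythm (amplitude 0.12, adjusted p = 0.0369) may be that of either gene.

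Klhl38 (chromosome 15, 58314572 to 58324169), a kelch gene of muscle, had the widest swing of the members and peaked at ZT 20.2. Control libraries were at 38.4, 40.1, 24.8 and 37.1 FPKM at ZT0 and at 13.1, 16, 10.5 and 11 FPKM at ZT6. They were at 23.7, 21.4, 22.8 and 8.43 FPKM at ZT12 and at 31.7, 24.4, 27.8 and 36.7 FPKM at ZT18. In controls every library of ZT0 and ZT18 thus lay above every library of ZT6. Mutant libraries ranged from 15.6 to 30.9 FPKM at ZT0, 11.5 to 19.5 FPKM at ZT6, 13.4 to 22.0 FPKM at ZT12 and 20.2 to 28.0 FPKM at ZT18. In mutants the ZT18 libraries lay above those of ZT6, while ZT0 and ZT6 overlapped. Over both genotypes the amplitude was 0.56 (SE 0.0874, limma adjusted p = 0.000188).

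Klhl33, another kelch gene of muscle, was low at ZT6 and high at ZT18, with medians of 40.7, 30.2, 39.4 and 46.2 FPKM at ZT0, 6, 12 and 18. The ranges at ZT6 (23.3 to 39.0 FPKM) and ZT18 (38.0 to 76.1 FPKM) overlapped slightly, and the amplitude was 0.35 (SE 0.0745, adjusted p = 0.00613). Asb15, an Asb gene of skeletal muscle, had medians of 54.1, 36.0, 46.0 and 52.4 FPKM, with the narrowest spread at ZT6 (32.3 to 38.9 FPKM) and the widest at ZT0 (35.8 to 82.3 FPKM). Its amplitude was 0.31 (SE 0.0790, limma adjusted p = 0.0264). Asb8 rose from a median of 66.3 FPKM at ZT6 to 79.5 FPKM at ZT18 (amplitude 0.13, adjusted p = 0.00916).

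Fbxo3 had its highest median at ZT18 (64.7 FPKM) and medians of 54.6 to 58.6 FPKM at the other times (amplitude 0.14, limma adjusted p = 0.0234). Klhl7 was lowest at ZT12 (median 32 FPKM) and highest at ZT0 (38.2 FPKM), with an amplitude of 0.16 (adjusted p = 0.0182). Its entry is 5.95 times as long as the RefSeq gene and covers Rint1, Tomm7 and Fam126a, so its rhythm may be that of any of these genes. Fbxl20 had a median of 5.09 FPKM at ZT0 and between 3.79 and 4.00 FPKM at the other times (amplitude 0.12, adjusted p = 0.0377).

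Of these 14, Klhl7, Klhl8, Klhl13, Klhl30, Klhl31, Klhl33, Klhl38 and Asb8 passed in every alternative in which they were tested. Without the 3 libraries of lowest weight, Fbxl14 (adjusted p = 0.0596) and Fbxl20 (adjusted p = 0.109) did not pass. Under quantile normalisation Fbxl14, Fbxl20 and Fbxo3 did not pass. Over all alternatives, the call was lost in 15 of 38 for Fbxl14 and 14 of 38 for Fbxl20. It was lost in 9 of 39 for Fbxo40, 4 of 39 for Fbxo3 and 3 of 39 for Asb15. Markers of other cells also varied with time: 6 of 10 endothelial markers and 3 of 10 fibroblast and matrix markers had a 24 h rhythm. The count was 0 of 15 for muscle fibre and 1 of 9 for slow fibre markers, and the share over all genes tested was 11.4%. Counts for the other lists are not given here. The endothelial sum was 198 to 269 FPKM at ZT0 and 167 to 197 FPKM at ZT18. The slow fibre sum had a median of 1074 FPKM at ZT0 and 1635 FPKM at ZT18, with overlapping ranges. Nerve and Schwann markers had median sums of 176 and 97.1 FPKM at these times, also with overlap. The part of these markers in the members' rhythms was not tested. The labels do not assign samples to sequencing pools or harvest days, so any share of these in the rhythms was not tested.

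Promoter sequence was examined for the rhythmic members, since a clock output gene can carry an E-box, a D-box or a RORE, the sites of the CLOCK and BMAL1, PAR bZIP, and ROR and REV-ERB factors. RefSeq promoters (GRCm38.p6, 250 bases before to 50 after each start) were found for 72 of the 87 members and for 10 of the 16 called in any 24 h test. Both strands were searched for 5 motifs: the E-box CACGTG, the D-box TTANGTAA, the RORE TAGGTCA, the glucocorticoid receptor core ACANNNTGT and the FoxO site GTAAACA. The E-box and the glucocorticoid motif read the same on both strands, and no motif is contained in another. In the windows of the 10 rhythmic genes, the E-box occurred in Asb15, the RORE in Fbxo40 and Klhl33 and the glucocorticoid motif in Klhl13. Of all 32851 RefSeq promoters, 7.15% held the E-box, 2.32% the D-box, 2.61% the RORE, 6.85% the glucocorticoid motif and 3.65% the FoxO site. Counted by gene over the 9196 tested genes with a promoter, the shares were 12.0% for the E-box, 1.79% for the D-box, 2.31% for the RORE, 5.07% for the glucocorticoid motif and 3.02% for the FoxO site. Of the 72 members with a promoter, 7 held the E-box, 1 the D-box, 3 the RORE, 3 the glucocorticoid motif and 2 the FoxO site. The bases before the start of the first 3 genes are printed 5′ to 3′ on the strand of the gene, because they hold the clock motifs found, with the motif in capitals:
Asb15, chr6:24527894-24528143, plus strand: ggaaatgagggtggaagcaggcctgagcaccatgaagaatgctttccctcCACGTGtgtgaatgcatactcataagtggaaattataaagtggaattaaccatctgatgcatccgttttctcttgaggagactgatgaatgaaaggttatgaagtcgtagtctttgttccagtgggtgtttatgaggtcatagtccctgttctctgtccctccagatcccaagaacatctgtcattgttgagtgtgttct
Fbxo40, chr16:36979137-36979386, minus strand: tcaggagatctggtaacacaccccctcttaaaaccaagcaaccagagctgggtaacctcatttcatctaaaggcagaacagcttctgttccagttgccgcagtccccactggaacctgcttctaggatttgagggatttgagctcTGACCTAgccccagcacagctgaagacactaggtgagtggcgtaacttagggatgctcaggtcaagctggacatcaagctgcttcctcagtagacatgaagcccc
Klhl33, chr14:50897484-50897733, minus strand: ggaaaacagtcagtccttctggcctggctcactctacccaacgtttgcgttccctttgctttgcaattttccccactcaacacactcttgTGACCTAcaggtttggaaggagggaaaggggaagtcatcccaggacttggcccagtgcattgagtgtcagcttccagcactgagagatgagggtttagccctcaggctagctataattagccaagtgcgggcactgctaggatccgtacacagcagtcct
The E-box of Asb15 begins 200 bases before the start. The RORE, found on the opposite strand as TGACCTA, begins 105 bases before the start of Fbxo40 and 160 bases before that of Klhl33. None of the other 4 motifs was found in these 3 windows. Fbxo40 peaked at ZT 6.74 and Klhl33 at ZT 18.5, and a relation of motif to phase was not tested. The table's entry for Klhl33 ends at 50893255, short of the RefSeq start, so the window printed for it lies away from the measured entry. A match describes only the letters searched, since flanking bases were not examined, and is no measured binding.

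Each genotype alone gave fewer calls. In controls 6 members (6.90%) had a 24 h rhythm, against a background of 5.55%: Klhl38 (amplitude 0.75, adjusted p = 0.00106), Klhl30 (0.37, 0.0284), Asb11 (0.35, 0.0432), Klhl8 (0.23, 0.0219), Fbxl20 (0.18, 0.0392) and Fbxo25 (0.16, 0.0414). In mutants 3 members (3.45%) had one, against a background of 3.92%: Klhl30 (0.49, 0.00269), Klhl13 (0.33, 0.00336) and Klhl8 (0.29, 0.00269). Both tests used the same spread per gene, pooled over both genotypes. Array weights were under 1 in every mutant library at ZT0 and ZT12, and on both sides of 1 over controls and in the other mutant groups. The control and mutant counts are therefore not a like comparison. Over the alternatives, the control call was lost in 15 of 39 for Asb11, 14 of 38 for Fbxl20 and 13 of 39 for Fbxo25. For Klhl30 and Klhl8 it was lost in 4 of 39 each, and Klhl38 kept it. The control count was sensitive to single libraries, and was 1 without control ZT18 library 3, when Klhl38 alone was called. It was 2 without control ZT6 library 0, control ZT6 library 1 or control ZT18 library 2, and 3 without control ZT0 library 1, control ZT0 library 3 or control ZT18 library 1. The mutant count was 7 without mutant ZT0 library 2, when Asb8, Asb12, Fbxo3 and Fbxo22 were called besides Klhl8, Klhl13 and Klhl30.

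**Figure D5:**
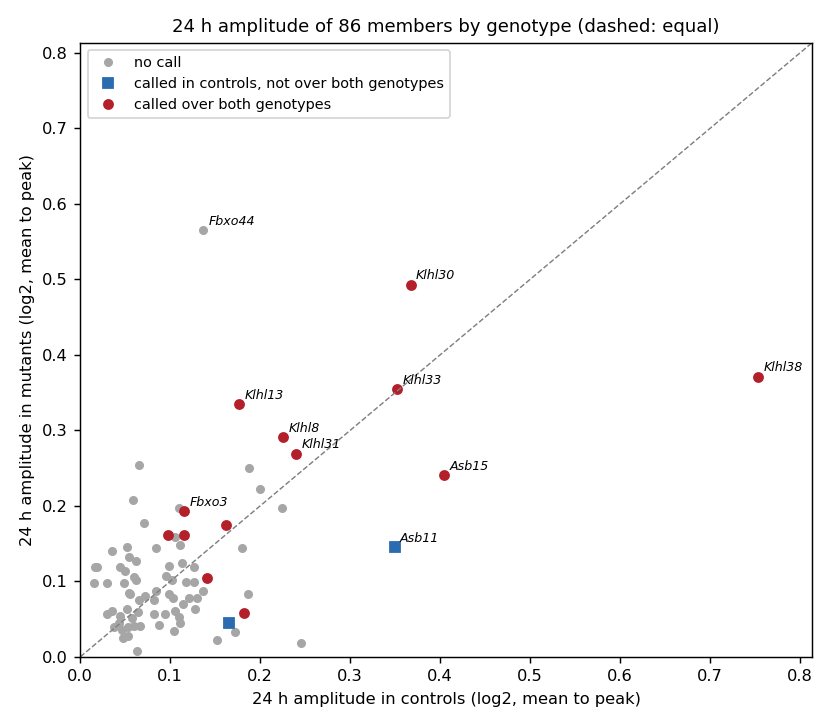
Amplitude of the fitted 24 h curve (log2, mean to peak) in controls and in mutants for 86 of the members, with the dashed line at equal amplitude. Klhl38 lies farthest below the line, at 0.75 in controls and 0.37 in mutants, and no difference in rhythm between genotypes passed the test.

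The rhythm itself did not differ detectably between genotypes for any member. Limma called 0 members, with a background of 0%, and 0 members had an unadjusted p under 0.05, against 640 of all genes (5.34%). Klhl38 had an amplitude of 0.75 in controls and 0.37 in mutants, with peaks at ZT 20.5 and 19.5 (adjusted p of the difference 0.880). Asb11 had the smallest p of the difference (0.0511, adjusted p = 0.880). Its control libraries were at 121, 155, 112 and 166 FPKM at ZT0 and 103, 83.9, 78.6 and 84.0 FPKM at ZT12, without overlap. Its mutant libraries were at 128, 93.3, 184 and 91.1 FPKM at ZT0 and 148, 142, 99.1 and 96.8 FPKM at ZT12, and these overlapped.

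Fbxo25, the paralog of the atrophy gene Fbxo32 (atrogin-1), had control means of 6.89 ± 0.224, 6.36 ± 0.65, 6.16 ± 0.972 and 8.01 ± 0.252 FPKM at ZT0, 6, 12 and 18 (SD, n = 4 each). All 4 control libraries at ZT18 (7.84 to 8.38 FPKM) lay above all others of that genotype. The control rhythm still lost its call in 13 of 39 alternatives, with a limma adjusted p of up to 0.120. Mutant means lay between 6.76 and 7.15 FPKM at the 4 times, with an amplitude of 0.04 (adjusted p = 0.836), and the difference between genotypes had an adjusted p of 0.886. Fbxl20 in controls was at 5.401, 5.10, 5.07 and 5.18 FPKM at ZT0, above every control library of the other times (3.25 to 4.46 FPKM).

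A 12 h component was taken as the mean of ZT0 and ZT12 minus that of ZT6 and ZT18. Libraries of the first pair of times carried a different index set from those of the second pair, so index set and 12 h component cannot be told apart. Comparisons of libraries at ZT0 or ZT12 with libraries at ZT6 or ZT18 share this limit. The 12 h component was called for 0 members with limma, against a background of 0.0668%. At an unadjusted p under 0.05 there were 10 members (11.5%), against 14.1% of all genes. The smallest p were those of Fbxw17 (0.27, SE 0.0722, adjusted p = 0.124), Fbxl20 (0.16, SE 0.0454, adjusted p = 0.153) and Fbxl12 (0.27, SE 0.0860, adjusted p = 0.189). For Fbxw17, mutant libraries 2 at ZT0 (3.30 FPKM) and 1 at ZT12 (2.91 FPKM), both of low weight, were the highest of all 32.

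Among 104 other genes of the pathway, the cullins, linkers, NEDD8 and COP9 genes and further adaptors, limma called 0 for genotype over all times, with 1 at an unadjusted p under 0.05, and 12 for the 24 h rhythm over both genotypes (11.5%, against 11.4% of all genes tested). The rhythm was called for 0 of 10 cullins and RING proteins, 0 of 4 linkers, 0 of 9 COP9 signalosome subunits and 0 of 9 ubiquitin-conjugating and partner enzymes. Senp8, the protease that matures NEDD8 and removes it from targets, was the 1 of 14 NEDD8 pathway genes called (amplitude 0.14, peak at ZT 8.87, adjusted p = 0.0203). The other 11 calls were among 58 further adaptors: Crbn, Fem1b, Fem1c, Kbtbd13, Kctd6, Kctd7, Rhobtb1, Rhobtb3, Socs2, Spsb4 and Wsb1.

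Wsb1, a SOCS box adaptor with WD40 repeats, had the widest swing of these genes. Its means were 17.1 ± 2.98, 14.6 ± 2.28, 8.60 ± 1.98 and 7.57 ± 1.90 FPKM at ZT0, 6, 12 and 18 (SD, n = 8 each), with an amplitude of 0.64 (SE 0.0613, limma adjusted p = 1.17e-07). Kbtbd13, a BTB-kelch gene mutated in nemaline myopathy, was at 12.1 ± 2.77 FPKM at ZT0 and 8.71 ± 0.982 FPKM at ZT18 (amplitude 0.26, adjusted p = 0.00723). Socs2, a brake on growth hormone signalling, was at 2.85 ± 0.50 FPKM at ZT12 and 6.59 ± 1.95 FPKM at ZT18 (amplitude 0.37, adjusted p = 0.000600).

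Of 14 tested partner and substrate genes of the adaptors, 4 had a 24 h rhythm, against 11.4% of all genes tested: Cry1, Cry2, Lmod2 and Tcap. The list was chosen with earlier results of these data known, and Cry1 and Cry2 are themselves clock genes. The count is given as a description. Cry1, which encodes a cryptochrome, a repressor of the circadian clock, was at 9.39 ± 1.71 FPKM at ZT0 and 4.85 ± 0.897 FPKM at ZT12 (SD, n = 8 each), with an amplitude of 0.45 and a peak at ZT 1.46 (limma adjusted p = 2.30e-06). Cry2 peaked at ZT 18.4 (amplitude 0.25, adjusted p = 0.0164). Tcap, which encodes telethonin of the Z-disc, was at 2421 ± 444 FPKM at ZT6 and 4521 ± 454 FPKM at ZT18 (amplitude 0.46, adjusted p = 1.80e-05). Lmod2, a thin filament leiomodin, was at 62.4 ± 4.13 FPKM at ZT6 and 131 ± 20.1 FPKM at ZT18 (amplitude 0.53, adjusted p = 2.61e-06). Klhl40 and Klhl41, the adaptors of thin filament proteins, did not pass the rhythm test (amplitude 0.20, adjusted p = 0.0683, and 0.08, adjusted p = 0.329).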

How the data were processed

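Polyadenylated RNA of gastrocnemius muscle was measured in 32 libraries, made with a stranded kit per the labels' protocols. The deposited values are FPKM, computed by the authors per gene and library on mm10 per the submitters' processing notes. Aligner, quantifier and annotation are not given in the sources used here. Columns were matched to the 8 groups by genotype and time. The labels number separate mice, and the library number in the table, 0 to 3, does not say which mouse it is.

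FPKM carry no counts, so absolute depth is unknown. In 865 genes with low values, 66.1% of values lay within 0.1 of a whole step, against 20% for evenly spread values without a fit. The steps and relative depths were fitted to these same values, so the share is no test of them. Values were transformed as log2(FPKM + 1), which understates the change of low genes, and the 11975 genes with at least 1 FPKM in at least 4 libraries were fitted with 1 mean per group (limma 3.58.1, R 4.3.3, trended prior, 24 residual degrees of freedom). The p-values, 2-sided, were adjusted after Benjamini and Hochberg over all genes in each of 11 comparisons and called under 0.05. Rhythms were F tests of cosine and sine contrasts with a period of 24 h, and the SE of an amplitude is that of 1 coefficient. The script was tested on simulated data. Alternatives were a pseudocount of 0.1, no filter, a mean of at least 5 FPKM, quantile normalisation, array weights, exact zeros as missing, each library left out in turn and, added after seeing the data, the 3 libraries of lowest weight left out together.

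Members and gene lists were chosen with earlier results of these data known. Named were the members called in a comparison or, with none called, the 3 with the smallest p, the 3 highest of each family, members listed for a role in muscle, clock or growth, and the pathway genes called. Fbxo44, Klhl6, Klhl28, Fbxo18 and members named at the minimum, for their neighbours or beside a partner were chosen after their values were seen. Of the 87 entries, 17 overlap another RefSeq coding gene and 6 are over 2 times as long as the RefSeq gene. Promoters and gene positions are RefSeq's. A further deposited table of rhythm statistics was not used here. Protein sequences were not used here. Of the members, 1 entered the fit and the counts and is not reported here by itself.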

Additional observations from a re-analysis of the deposited data

Results flagged for a closer look

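Within groups of 4 libraries, 11 of 256 checks of 32 members found a library far from the other 3, its gap to the nearest, as a share of the group's range, being above Dixon's critical value. Chance flags about 1 in 20 groups.

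Control ZT12 library 3 was low in 3 genes: Klhl38 was at 8.43 FPKM against 21.4 to 23.7 FPKM in the other 3, Asb15 at 23.1 FPKM against 45.5 to 46.7 FPKM and Asb13 at 11.2 FPKM against 13.9 to 14.3 FPKM. Mutant ZT0 library 2, the library of lowest weight, was high in Fbxw17 at 3.30 FPKM against 1.44 to 1.56 FPKM. Mutant ZT18 library 0, also of low weight, was high in Fbxo3 at 80.1 FPKM against 62.8 to 65.7 FPKM. Fbxw17 was low in mutant ZT6 library 3, at 0.946 FPKM against 1.40 to 1.46 FPKM.

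The other 5 lay in control groups. Asb14 was at 45.9 FPKM in ZT18 library 1 against 55.0 to 56.4 FPKM, and Asb8 was at 81.2 FPKM in ZT12 library 0 against 71.8 to 72.9 FPKM. Fbxl12 was at 5.05 FPKM in ZT6 library 2 against 4.01 to 4.06 FPKM. Fbxo25 was at 7.34 FPKM in ZT6 library 1 against 6.00 to 6.08 FPKM, and at 8.38 FPKM in ZT18 library 2 against 7.84 to 7.93 FPKM.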

How the results depend on the processing

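Of the genotype differences and 12 h components of members named for a smallest p, none changed sign under the alternatives run. Amplitudes and the dependence on time carry no sign, so a reversal could not show there. Shifts of peak time were not examined. Other printed differences were not rerun. Over both genotypes the 14 rhythmic members became 25 with array weights, and 11 to 19 when single libraries were left out. With the 3 libraries of lowest weight left out there were again 14, of which 11 were the same. In controls the count of 6 became 3 with no filter and 20 with array weights, and 1 to 9 when single libraries were left out. In mutants the count of 3 became 5 with quantile normalisation, 11 with array weights, 6 without the 3 libraries of lowest weight (Asb8, Fbxo22 and Fbxo40 added) and 3 to 7 when single libraries were left out. At ZT12 the genotype count of 0 became 1 with array weights (Fbxl15) and 0 to 4 when single libraries were left out: 4 without mutant ZT0 library 2 (Fbxl15, Fbxl4, Fbxo8 and Fbxw5), 2 without mutant ZT0 library 3 (Fbxl15 and Fbxo8) and 4 without mutant ZT12 library 3 (Fbxl15, Fbxl4, Fbxl5 and Fbxo8). For the dependence on time, the count of 0 became 1 with array weights and 0 to 1 when single libraries were left out: 1 without mutant ZT0 library 2 (Fbxl15) and 1 without mutant ZT0 library 3 (Fbxo8). A ZT12 difference holds no ZT0 library, so without mutant ZT0 library 2 or 3 the differences stayed at 0.67 for Fbxl15 and 0.45 for Fbxo8. In those ZT12 fits only the estimate of the spread and the adjustment changed. The cause of the other shifts was not tested. The other genotype counts, the rhythm difference and the 12 h component stayed at 0 in every alternative run. No paired analysis was possible because the library numbers do not identify mice.

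Absolute depth is unknown, so counting error could not be given for low members such as Fbxl15, and a mean minimum of 5 FPKM leaves 53 of the 87 members.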
